A study of Mus musculus with 8 samples.

Results

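The genes described here encode NF-kappaB subunits and the inhibitors that NF-kappaB itself induces: Nfkb1, Nfkb2, Rel and Relb among the subunits, Nfkbia, Nfkbiz and Bcl3 among the IkB proteins, and Tnfaip3, Birc3 and Ier3 among the feedback and survival factors. Their probes were the noncontrol ones whose accession belongs to one of these 10 genes. The rule uses no measured value, but the genes were chosen with earlier results of these data known. The 10 genes had 12 probes among 55681 noncontrol probes, of which 28026 could be named for 21154 genes. Nfkb1 and Relb had 2 probes each. Of the 12 probes, 11 passed the filter on signal, which asks that a probe be well above background on both arrays of some group, so 9 genes could be tested, and Rel could not.

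The samples were macrophages washed from the peritoneum of 8-week-old mice, male or female, on a 129/C57Bl6 background. Cells were plated overnight, and RNA was taken from those that adhered. Labelled Cy3 copies made from 50 ng of total RNA were hybridised to single-colour Agilent arrays, 2 per group. The first group, called Fra-1 knockout here, carried Fra-1lox/lox MxCre-/+, and its littermates with Fra-1lox/lox and no Cre are called Fra-1 control. A second knockout group carried Fra-2lox/lox LysMCre-/+, and its littermates with Fra-2lox/lox and no Cre are called Fra-2 control. Controls of both lines thus carry floxed alleles too. Mx Cre is driven by an interferon-inducible promoter, and the inducer used was not given in the sources used here. LysM Cre is driven by a promoter active in myeloid cells, so that cells of other types in the dish keep their Fosl2. The series text counts 2 mice for each knockout group. Thioglycollate, an irritant that draws inflammatory cells into the peritoneum, is named in the labels of all 4 Fra-1 line samples and of none of the Fra-2 line. Line and thioglycollate label therefore cannot be told apart in any comparison between the lines.

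NF-kappaB is a family of dimeric transcription factors that macrophages use to switch on inflammatory genes after signals from Toll-like, interleukin-1 and TNF receptors. In resting cells the dimers are held in the cytoplasm by IkB proteins, which the IKK kinase complex marks for destruction. The freed dimers induce their own inhibitors, including IkBalpha (Nfkbia) and A20 (Tnfaip3), which end the response, and mRNA of these genes is widely read as a trace of recent NF-kappaB activity. The deleted proteins, Fra-1, encoded by Fosl1, and Fra-2, encoded by Fosl2, belong to AP-1, another family of inducible transcription factors, which often binds near NF-kappaB at inflammatory genes.

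Because these genes are known targets of NF-kappaB, the sequence just before their transcription starts is shown for 4 members with matches to the NF-kappaB consensus and for Birc3, which had none. The sequences are the 250 bases upstream of the annotated start, 5′ to 3′ on the gene's strand, from RefSeq promoter windows of mouse assembly GRCm38.p6. Capitals mark matches to the NF-kappaB consensus on either strand.
Nfkbia, chr12:55492648-55492897, minus strand: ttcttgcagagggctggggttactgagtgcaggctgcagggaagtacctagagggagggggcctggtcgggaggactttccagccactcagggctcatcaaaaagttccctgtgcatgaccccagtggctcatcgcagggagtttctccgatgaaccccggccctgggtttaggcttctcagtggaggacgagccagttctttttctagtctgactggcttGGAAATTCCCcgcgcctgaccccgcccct
Ier3, chr17:35821463-35821712, plus strand: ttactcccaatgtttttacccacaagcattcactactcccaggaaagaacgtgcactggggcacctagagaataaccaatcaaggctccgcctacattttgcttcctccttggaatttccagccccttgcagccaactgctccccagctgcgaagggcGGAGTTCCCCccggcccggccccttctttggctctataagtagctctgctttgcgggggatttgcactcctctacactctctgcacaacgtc
Nfkb2, first start, chr19:46304487-46304736, plus strand: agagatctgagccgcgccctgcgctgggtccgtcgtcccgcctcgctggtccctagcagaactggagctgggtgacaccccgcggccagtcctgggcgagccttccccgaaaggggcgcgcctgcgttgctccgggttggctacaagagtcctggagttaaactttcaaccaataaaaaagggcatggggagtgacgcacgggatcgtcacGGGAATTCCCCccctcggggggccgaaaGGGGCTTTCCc
Tnfaip3, first start, chr10:19015411-19015660, minus strand: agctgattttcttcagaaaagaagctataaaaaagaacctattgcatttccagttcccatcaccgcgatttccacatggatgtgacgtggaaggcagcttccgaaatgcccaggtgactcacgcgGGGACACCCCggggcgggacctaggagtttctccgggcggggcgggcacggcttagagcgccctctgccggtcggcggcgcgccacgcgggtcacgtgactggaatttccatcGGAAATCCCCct
Birc3, chr9:7873171-7873420, minus strand: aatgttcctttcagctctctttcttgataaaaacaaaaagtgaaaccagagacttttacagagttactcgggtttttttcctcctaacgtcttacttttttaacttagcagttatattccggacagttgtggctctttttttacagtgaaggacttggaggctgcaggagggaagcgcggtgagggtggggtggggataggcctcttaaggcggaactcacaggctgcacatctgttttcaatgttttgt

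Promoter windows, which run on to 50 bases after the start, were found for 7 of the 10 members, 10 windows in all. Nfkb1, Relb and Nfkbiz had no window. The NF-kappaB consensus was present in 6 of the 7 members, against 5.14% of the 27025 genes in the table. With −1 as the last base before the start, the match in Nfkbia lay at −29 to −20 and that in Ier3 at −92 to −83. Nfkb2 had matches at its 3 annotated starts, and at the first of them an overlapping pair sat at −39 to −29 with another match at −11 to −2. In Tnfaip3 the first start had a match at −125 to −116 and another at −12 to −3, and its second start had none. Rel had an overlapping pair at −92 to −82, and the match in Bcl3 fell after the start, at bases 3 to 12. Among other NF-kappaB target genes the consensus was present in 11 of 22, and among adaptors and ubiquitin ligases of the pathway in 2 of 16.

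The AP-1 motif TGANTCA, searched on both strands, was present in 2 of the 7 members, against 8.97% of genes in the table. In Tnfaip3 it lay at −136 to −130 from the first start, as the lower-case letters tgactca just before the first capitals, and did not overlap an NF-kappaB match. The other was in the second start window of Nfkb2, at −210 to −204. These matches describe letters in a window, not binding in these cells.

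**Figure D1:**
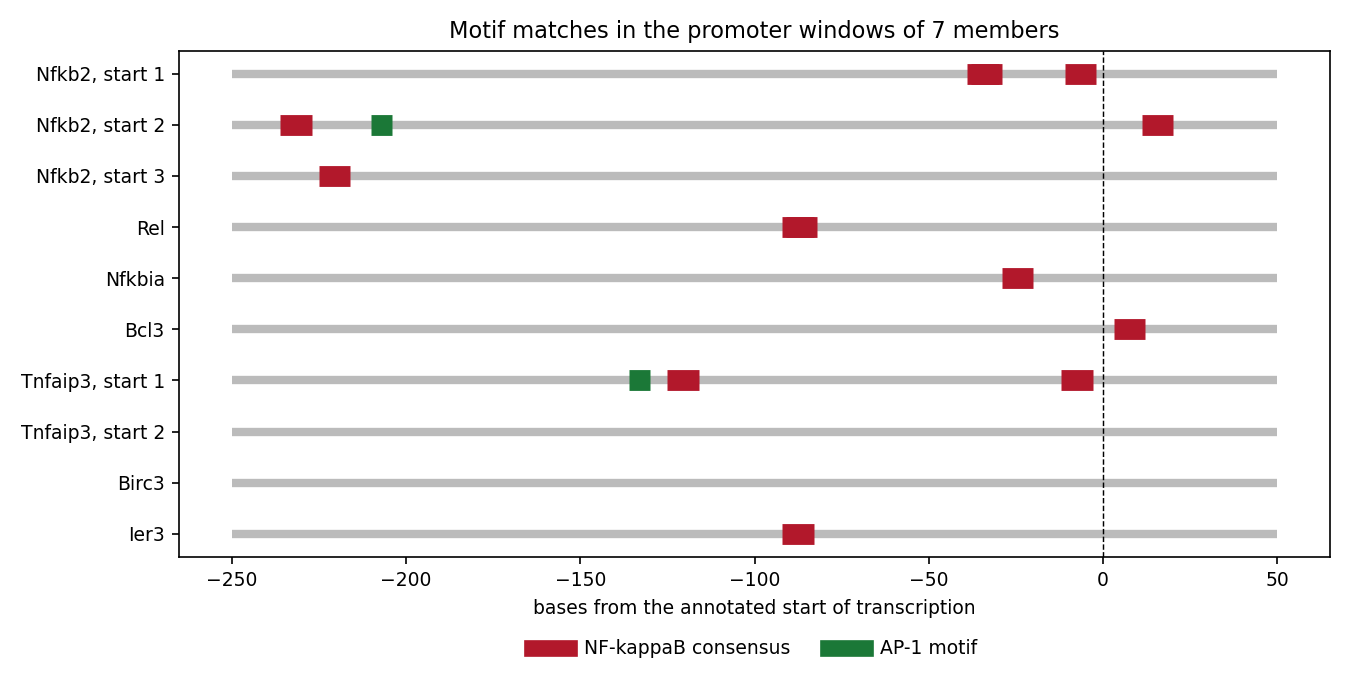
Motif matches in the promoter windows of the 7 members found in the RefSeq table. The horizontal axis is distance in bases from the annotated start of transcription, grey bars are the windows, red blocks are matches to the NF-kappaB consensus and green blocks are AP-1 motifs. Birc3 and the second start of Tnfaip3 have no block.

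Levels below are log2 signals relative to the 75th percentile of the same array, so that 0 stands for that percentile and each unit for a factor of 2. Between 47.7% and 57.6% of noncontrol probes were well above background on each array, lowest on Fra-2 knockout 1, and the 75th percentile of signal ran from 315 to 470. The arrays lay on a pair of slides. Slide 1 held both Fra-1 controls and the arrays numbered 1 of the other groups, and slide 2 held the arrays numbered 2 of Fra-1 knockout, Fra-2 knockout and Fra-2 control. All tests are limma fits across all features with Benjamini-Hochberg adjustment, and a gene is called at an adjusted p under 0.05.

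Fosl1, the gene targeted in the Fra-1 line, read −4.78 and −4.18 in Fra-1 knockout cells, against −2.73 and −1.97 in Fra-1 control cells. It was not well above background on either knockout array and was above it on both control arrays. With background in place of the knockout level, the group means differed by 3.91-fold, a bound for background alone. The limma difference had an adjusted p of 0.372. Over 16 alternatives the log2 difference ran from −2.51 to −0.74, and with 1 array left out from −2.51 to −1.75. In this and later bounds, a level below background is replaced by the lowest signal well above background on that array where that is higher. Fosl2, targeted in the Fra-2 line, had a bright probe at 6.43 and 7.14 in Fra-2 knockout cells, against 5.51 and 5.57 in Fra-2 control cells, an adjusted p of 0.223. A dimmer Fosl2 probe read −3.96 and −3.82 in Fra-2 knockout cells, against −2.59 and −2.64 in Fra-2 control cells. The bright probe was thus higher and the dim probe lower in the knockout, and the mean of both differed by −0.016. Without Fra-2 knockout 1 the bright probe's difference was 1.59 (adjusted p = 0.0388). Whether either probe falls in the deleted stretch was not known here, and a probe outside it checks nothing.

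Between the mouse lines, most of the NF-kappaB subunits and feedback inhibitors among the 10 genes were lower in the Fra-1 line than in the Fra-2 line, in controls and in knockouts alike. Of 9 members tested, 8 were called lower in Fra-1 control than in Fra-2 control cells, where 17.1% of all features were. Ier3 and Birc3 had the largest differences among the members, 19.1-fold and 10.3-fold, and Tnfaip3 did not pass the test. The median log2 difference was −2.26 over the 9 members and −0.04 over all features. In 7 of the 9 the level was at least 2 log2 units lower, as it was in 5.68% of all features. All 9 were lower without overlap between the groups, which held for 37.3% of all features, while 33.6% were higher without overlap.

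Among the subunits, Nfkb1, which encodes the precursor p105 and its product p50, read 0.60 and 0.50 in Fra-1 control cells, against 2.08 and 2.23 in Fra-2 control cells. The lower level in Fra-1 control was 3.04-fold (log2 difference −1.60, SE 0.17, adjusted p = 0.00142). Its dimmer probe gave −1.27. Nfkb2, which encodes p100 and p52 of the noncanonical pathway, read 1.44 and 1.73 in Fra-1 control cells, against 3.67 and 4.05 in Fra-2 control cells. That was a difference of −2.28 (SE 0.27, adjusted p = 0.00213).

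Relb, the usual partner of p52, read 1.80 and 1.87 in Fra-1 control cells, against 4.18 and 4.57 in Fra-2 control cells. It fell by 2.54 log2 units (SE 0.25, adjusted p = 0.00115), and its other probe differed by −2.61. For both genes with a probe pair, the probes thus moved the same way. Rel, which encodes c-Rel, stayed near background everywhere. Its probe was above background on 3 of 8 arrays (Fra-1 knockout 2, Fra-1 control 2 and Fra-2 control 1), and its readings ran from −5.81 to −4.15, so no comparison of Rel was made.

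The 3 IkB proteins among the members were each called lower in Fra-1 control cells. Nfkbia, which encodes the classical inhibitor IkBalpha, read 4.35 and 4.39 in Fra-1 control cells, against 6.41 and 6.84 in Fra-2 control cells. The level was 4.77-fold lower in Fra-1 control (log2 difference −2.26, SE 0.23, adjusted p = 0.00123). Nfkbiz encodes IkBzeta, a nuclear IkB protein needed for induction of Il6 and other secondary response genes. It read −2.18 and −1.99 in Fra-1 control cells, against 0.19 and −0.01 in Fra-2 control cells, a difference of −2.17 (SE 0.15, adjusted p = 0.000404). Bcl3, another nuclear IkB protein that binds p50 and p52 dimers, read 3.93 and 4.03 in Fra-1 control cells, against 6.05 and 6.22 in Fra-2 control cells. It differed by −2.15 (SE 0.21, adjusted p = 0.00102). Their differences were not tested against each other, and the 95% intervals ran from −2.81 to −1.70 for Nfkbia, −2.54 to −1.81 for Nfkbiz and −2.66 to −1.65 for Bcl3.

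Of the survival factors, Birc3, which encodes the ubiquitin ligase cIAP2, read −0.17 and −0.09 in Fra-1 control cells, against 3.09 and 3.37 in Fra-2 control cells. It differed by −3.36 (SE 0.17, adjusted p = 0.000201). Ier3, an immediate early gene that modulates cell survival, read 0.73 and 1.09 in Fra-1 control cells, against 4.90 and 5.43 in Fra-2 control cells. Its difference was −4.26 (SE 0.32, adjusted p = 0.00051).

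Tnfaip3 encodes A20, the ubiquitin-editing enzyme that shuts off signalling to IKK. It read 3.52 and 3.54 in Fra-1 control cells, against 4.22 and 4.69 in Fra-2 control cells. The groups did not overlap, but the difference of −0.93 (SE 0.35, adjusted p = 0.0944) was not called, and its 95% interval ran from −1.79 to −0.06. It passed the threshold without Fra-2 knockout 1 (adjusted p = 0.0202) or without Fra-2 knockout 2 (adjusted p = 0.0195), whose spread entered the common estimate of error. The smaller difference of Tnfaip3 than of the other members was not tested as a contrast between genes.

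**Figure D2:**
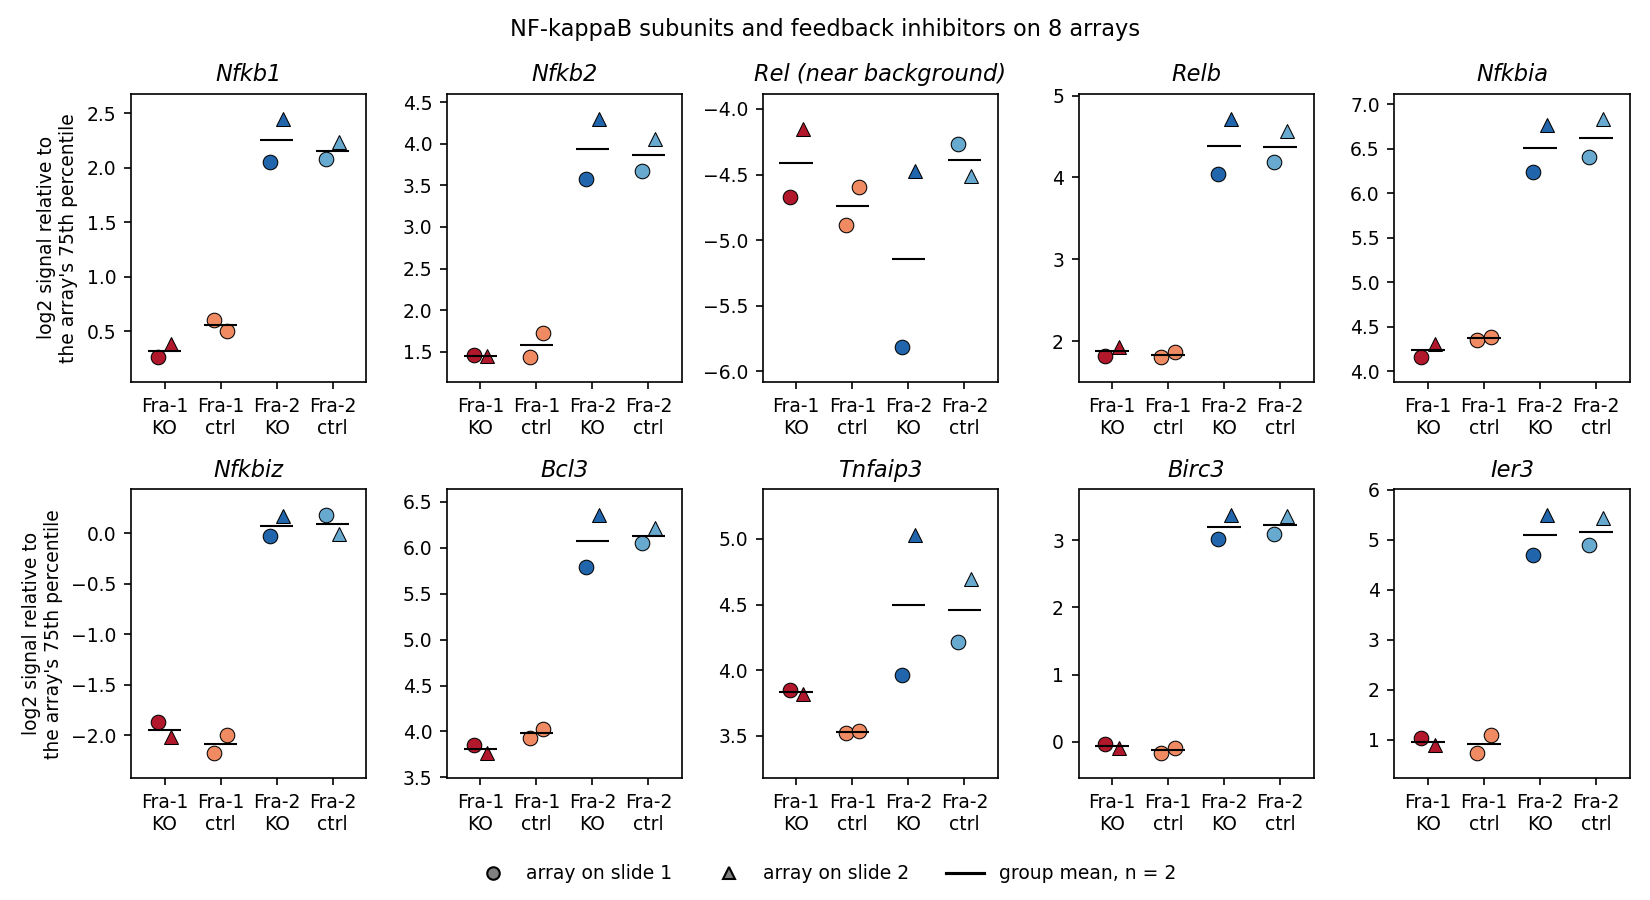
Log2 signal of the 10 members on each array, relative to the array's 75th percentile, for Fra-1 knockout, Fra-1 control, Fra-2 knockout and Fra-2 control (2 arrays each). Circles are arrays of slide 1, triangles arrays of slide 2, and lines are group means. In 9 panels all Fra-1 line arrays lie below all Fra-2 line arrays, and in the panel of Rel, which was near background, they overlap.

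The lines were also compared between the means of the knockout groups. The same fit and estimate of spread served as between controls, so this comparison is not independent of that one. Between knockouts the Cre driver (Mx or LysM) and the targeted gene also differ with the line and cannot be told apart from it. The same 8 members were called lower in Fra-1 knockout than in Fra-2 knockout cells, where 18.1% of all features were. Their median log2 difference with Tnfaip3 included was −2.27, against 0.01 over all features, and 7 of 9 were at least 2 log2 units lower, as were 5.91% of all features. All 9 were again lower without overlap, as held for 35.9% of all features, while 38.5% were higher without overlap.

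Ier3 read 1.04 and 0.88 in Fra-1 knockout cells, against 4.70 and 5.51 in Fra-2 knockout cells, and was 17.7-fold lower (log2 difference −4.14, SE 0.32, adjusted p = 0.000506). Birc3 read −0.03 and −0.09 in Fra-1 knockout cells, against 3.01 and 3.38 in Fra-2 knockout cells, a difference of −3.26 (adjusted p = 0.000179). Relb read 1.82 and 1.93 in Fra-1 knockout cells, against 4.04 and 4.72 in Fra-2 knockout cells, and differed by −2.51. The 2 Fra-1 knockout arrays lay close together for these genes, and the 2 Fra-2 knockout arrays lay further apart.

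Nfkb2 read 1.46 and 1.45 in Fra-1 knockout cells, against 3.58 and 4.30 in Fra-2 knockout cells, and differed by −2.49. Nfkbia read 4.16 and 4.31 in Fra-1 knockout cells, against 6.25 and 6.76 in Fra-2 knockout cells, and differed by −2.27. Bcl3 read 3.85 and 3.76 in Fra-1 knockout cells, against 5.80 and 6.36 in Fra-2 knockout cells, and also differed by −2.27. In these 3 genes too, every Fra-1 knockout array was below every Fra-2 knockout array. Nfkbiz read −1.87 and −2.02 in Fra-1 knockout cells, against −0.03 and 0.17 in Fra-2 knockout cells, and differed by −2.01. Nfkb1 read 0.26 and 0.38 in Fra-1 knockout cells, against 2.05 and 2.45 in Fra-2 knockout cells, and differed by −1.93. Adjusted p for the 8 called members ran from 0.000179 for Birc3 to 0.00147 for Nfkb2.

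Tnfaip3 read 3.85 and 3.82 in Fra-1 knockout cells, against 3.96 and 5.03 in Fra-2 knockout cells. Its difference of −0.66 was not called (adjusted p = 0.187), and the 2 Fra-2 knockout arrays differed from each other by more than that. Within slide 1 the difference was −0.12 and within slide 2 it was −1.21. Without Fra-2 knockout 1 it was −1.20 (adjusted p = 0.0193), and without Fra-2 knockout 2 it was −0.13.

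The direction was the same within each slide that gave a value. Within slide 1, the 9 differences between Fra-1 and Fra-2 control ran from −3.99 for Ier3 to −0.69 for Tnfaip3. Between Fra-1 and Fra-2 knockout they ran from −3.67 to −0.12 within slide 1 and from −4.62 to −1.21 within slide 2, with Ier3 and Tnfaip3 at the ends in each case. No within-slide value could be had for the controls on slide 2, which held no Fra-1 control.

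**Figure D3:**
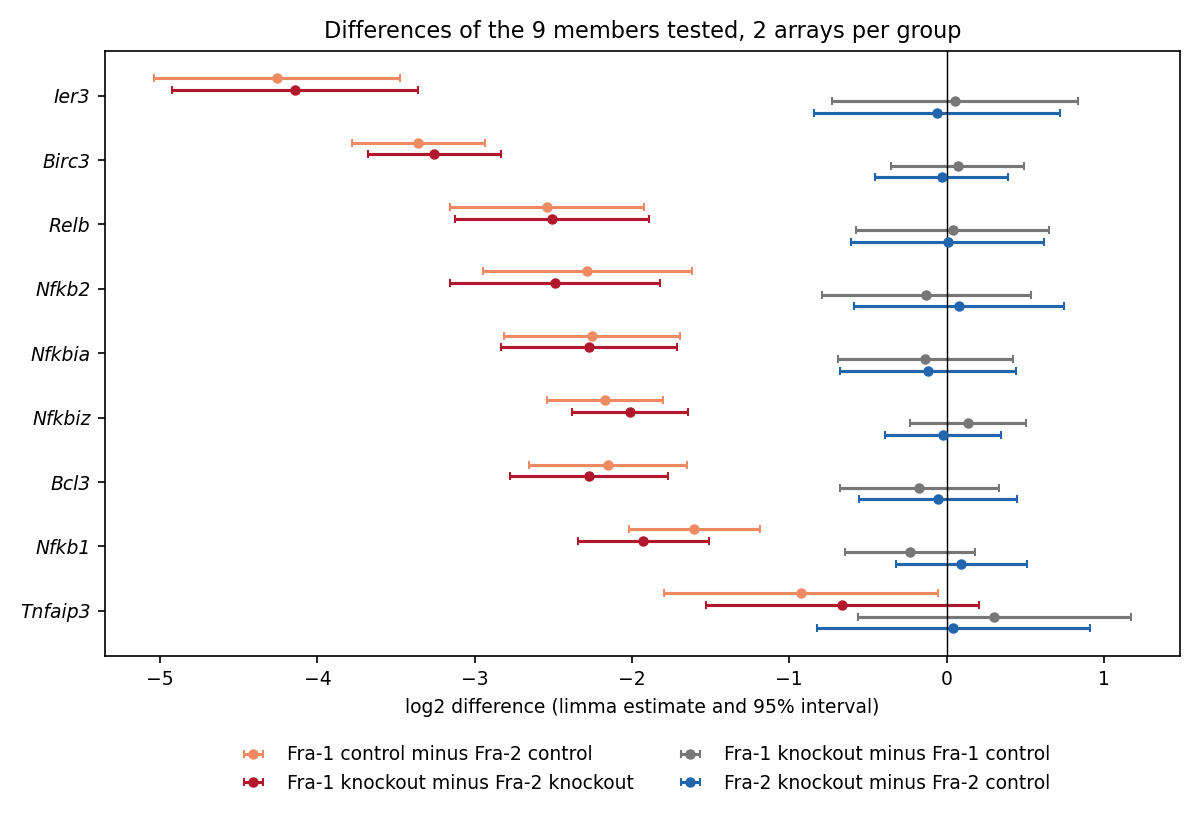
Log2 differences of the 9 members tested, with 95% intervals from the limma fit, for the comparisons between lines (Fra-1 minus Fra-2, controls in orange and knockouts in red) and for each knockout minus its control (Fra-1 in grey, Fra-2 in blue). The line comparisons lie left of 0, except that the interval of Tnfaip3 between knockouts crosses it, and the knockout comparisons all have intervals that include 0.

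Markers of several cell types differed between the lines, and in bulk RNA fewer cells of a type and less RNA per cell cannot be told apart. Cell type markers were summed on the linear scale relative to the 75th percentile. The 6 macrophage markers, which moved in both directions, summed to 909 to 1525 in the Fra-1 line and 906 to 1680 in the Fra-2 line, and each was above background wherever it had a usable spot. Between controls Adgre1, Fcgr1 and Mertk were called lower, at −1.61, −1.32 and −0.64, and Cd68 higher, at 1.93, and the same 4 were called between knockouts. The lowest sum in each line lacks Csf1r, whose brightest probe had no usable spot there. Dimmer Csf1r probes, above background on all 8 arrays, averaged 4.62 and 3.19 in Fra-1 control cells, against 6.93 and 5.80 in Fra-2 control cells. The same probes averaged 4.39 and 2.97 in Fra-1 knockout cells, against 6.85 and 5.71 in Fra-2 knockout cells. Markers of large resident peritoneal macrophages summed to 12.2 to 13.9 in the Fra-1 line and 150 to 329 in the Fra-2 line, and Timd4, a defining marker, was not well above background on any Fra-1 line array. Gata6, another, was at −0.47 between controls (adjusted p = 0.354) and was called lower between knockouts, at −2.86, while the other 4 were called lower in both comparisons. B cell markers summed to 1.39 to 5.23 in the Fra-1 line and 38.0 to 80.2 in the Fra-2 line, with Cd79a not above background on any Fra-1 line array and Pax5 above it on Fra-2 control 1 alone. Mast cell markers summed to 1.11 to 2.28 in the Fra-1 line and 34.1 to 112 in the Fra-2 line, and T cell markers to 1.80 to 2.26 in the Fra-1 line and 6.40 to 8.65 in the Fra-2 line. Dendritic cell markers summed to 0.791 to 3.03 in the Fra-1 line and 4.96 to 8.82 in the Fra-2 line. In the other direction, fibroblast markers summed to 40.6 to 156 in the Fra-1 line and 1.36 to 3.21 in the Fra-2 line, and mesothelial markers to 4.38 to 13.8 in the Fra-1 line and 0.496 to 0.618 in the Fra-2 line. Eosinophil markers summed to 4.35 to 5.08 in the Fra-1 line and 0.426 to 1.43 in the Fra-2 line, with Epx above background on no array and Prg2 on Fra-2 knockout 1 alone. Neutrophil sums overlapped, at 11.6 to 23.7 in the Fra-1 line and 13.5 to 27.4 in the Fra-2 line. The part of these markers in the differences of the NF-kappaB genes was not tested.

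**Figure D4:**
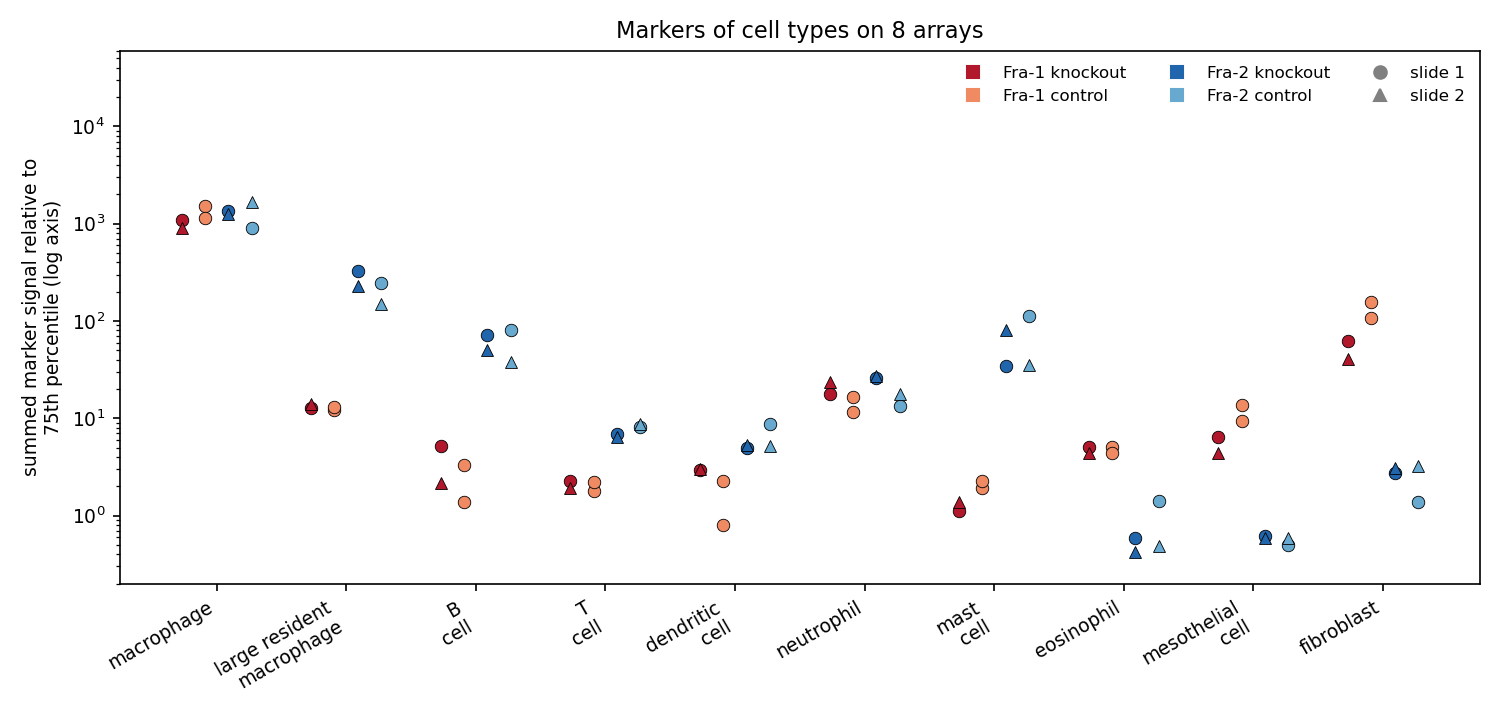
Summed signal of cell type markers on each array relative to the array's 75th percentile, on a log axis, for Fra-1 knockout, Fra-1 control, Fra-2 knockout and Fra-2 control (2 arrays each, circles on slide 1 and triangles on slide 2). Macrophage and neutrophil sums overlap between the lines, while resident macrophage, B cell and mast cell sums are lower and fibroblast and mesothelial sums higher on all Fra-1 line arrays.

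The rest of the pathway was read from 92 further genes in 6 lists, of which 91 were tested. Between Fra-1 control and Fra-2 control, 44 were lower and 13 higher, and between Fra-1 knockout and Fra-2 knockout 45 were lower and 11 higher. Over all features 33.9% were called between controls, 16.8% higher, and 39% between knockouts, 20.9% higher. The 57 pathway calls between controls came to 33 without Fra-2 control 2, and the 56 between knockouts to 37 when Fra-1 knockout 1 was left out and 35 when Fra-1 knockout 2 was. The median log2 difference between controls was 0.05 for the IKK complex and upstream kinases and −0.48 for adaptors and ubiquitin ligases. It was −1.84 for other NF-kappaB target genes, beside −2.26 for the 9 members and −0.04 for all features.

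Among the other subunits and IkB proteins, 2 of 4 were lower and none higher. Nfkbie, which encodes IkBepsilon, read 1.30 and 1.64 in Fra-1 control cells, against 4.50 and 4.96 in Fra-2 control cells, and was 9.58-fold lower (adjusted p = 0.00113). Rela, the main activating subunit p65, read 6.18 and 5.97 in Fra-1 control cells, against 6.64 and 6.90 in Fra-2 control cells, a difference of −0.70 (adjusted p = 0.0193). The call of Rela was lost without Fra-2 control 2 (difference −0.56) or without Fra-1 control 2 (difference −0.59). It was also lost with no signal filter (adjusted p = 0.0725) and in a fit of only the groups compared (adjusted p = 0.0597). Nfkbib and Nfkbid did not pass.

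Of 13 genes for the IKK complex and the kinases above it, 4 were lower and 3 higher in Fra-1 control than in Fra-2 control. The largest of these differences were about 1 log2 unit: Ikbke, an IKK-related kinase, at −1.07 (adjusted p = 0.0233), and Map3k14, the NIK kinase of the noncanonical pathway, at −1.06 (adjusted p = 0.0033). A dimmer Map3k14 probe overlapped between the groups, at −1.94 and −1.66 in Fra-1 control cells, against −1.50 and −1.96 in Fra-2 control cells. Between knockouts Map3k14 differed by −1.05, and with the mean of probes by −0.50, which was not called (adjusted p = 0.0501). The call of Ikbke was lost when any of the 4 control arrays was left out (differences −1.17 to −0.98). It was also lost with no signal filter (adjusted p = 0.0643) and with slide as a block (adjusted p = 0.0555). Ripk2, a kinase below NOD receptors, differed by −0.92 and Tab2, an adaptor of the TAK1 kinase, by −0.63. The call of Tab2 was lost without Fra-2 control 2 (difference −0.59) and with no signal filter (adjusted p = 0.0517). Between knockouts 4 were lower and 2 higher, with Ikbkb, the main catalytic subunit of IKK, at −1.0 (adjusted p = 0.0044), and Tab1 at 0.68 (adjusted p = 0.0158). Tab1 was not called without Fra-2 knockout 2 or without either Fra-1 knockout array (differences 0.52 to 0.68). Nor was it called with no signal filter (adjusted p = 0.0634) or in a fit of only the groups compared (adjusted p = 0.0521).

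Of 20 adaptors and ubiquitin ligases, 11 were lower and none higher in controls. Irak3, an inactive IRAK kinase that restrains Toll-like receptor signalling, read 1.82 and 1.65 in Fra-1 control cells, against 3.88 and 4.27 in Fra-2 control cells, and differed by −2.35 (adjusted p = 0.000933). Traf1 differed by −1.95, Myd88, the adaptor shared by most Toll-like receptors, by −1.63 and Card9, an adaptor of C-type lectin receptors, by −1.38. In the knockouts 12 were lower and 1 higher, with Irak3 at −2.56, Myd88 at −1.80, Traf1 at −1.76 and Card9 at −1.48. Traf1, a signalling adaptor of TNF receptors, was not called between controls without Fra-2 control 1, Fra-2 control 2 or Fra-1 control 1. Between knockouts Traf1 was not called without either Fra-1 knockout array (differences −1.80 and −1.71). Nor was it called there in a fit of only the groups compared (adjusted p = 0.0618). Of 15 other negative regulators, 6 were lower and 2 higher in controls. N4bp1, an inhibitor of NF-kappaB signalling, differed by −2.78 (adjusted p = 0.00213), and Zfp36, which destabilises cytokine mRNA, by −1.38. Pdlim2, a ubiquitin ligase for p65, differed by −1.06 and the deubiquitinase Cyld by −0.90. In the knockouts the same 4 genes differed by −2.71, −1.47, −1.23 and −1.11 in that order.

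Receptors moved in both directions. Of 10, 5 were lower and 2 higher in controls. Tlr2, a receptor for bacterial lipoproteins, read 2.11 and 1.84 in Fra-1 control cells, against 5.86 and 6.53 in Fra-2 control cells, and was 18.7-fold lower (adjusted p = 0.000391). Cd14, which passes lipopolysaccharide to Toll-like receptors, read 3.82 and 3.93 in Fra-1 control cells, against 7.76 and 7.88 in Fra-2 control cells, and was 15.4-fold lower (adjusted p = 0.00012). Il1r1, the interleukin-1 receptor, read 1.52 and 2.27 in Fra-1 control cells, against −4.21 and −3.58 in Fra-2 control cells, and was higher by 5.79 (adjusted p = 0.000693). The lowest signals well above background on those Fra-2 control arrays were −4.61 and −4.57, so Il1r1 was near background there. Fibroblast and mesothelial markers were high on the same Fra-1 line arrays as Il1r1, and their part in it was not tested.

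Other NF-kappaB target genes held the largest differences of the pathway. Of 29 tested, 16 were lower and 6 higher in controls. Il1b, the cytokine interleukin-1beta, read −2.61 and −2.77 in Fra-1 control cells, against 6.62 and 7.63 in Fra-2 control cells, a difference of −9.81 (SE 0.60, adjusted p = 0.000308). In knockouts it read −2.55 and −2.20 in Fra-1 knockout cells, against 6.42 and 8.18 in Fra-2 knockout cells, a difference of −9.68. Both lines were above background on all 8 arrays for Il1b. The neutrophil chemokines Cxcl3 and Cxcl2 differed between controls by −6.74 and −5.10.

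Il6 read −3.64 and −2.61 in Fra-1 control cells, against 2.33 and 3.01 in Fra-2 control cells, a difference of −5.79 (adjusted p = 0.00286). It was not above background on either Fra-1 knockout array. With the background bound used for Fosl1, Il6 was 461-fold lower in Fra-1 knockout than in Fra-2 knockout cells, which read 3.40 and 5.37. Without the bound the log2 difference was −9.50, and it ran from −10.49 to −6.54 over 16 alternatives. Not all targets were lower. Gadd45b, Bcl2l1 and Ccl2, named after their values were seen, differed by 3.11, 2.07 and 1.91 between Fra-1 and Fra-2 controls and by 2.97, 2.13 and 3.25 between knockouts, with adjusted p of at most 0.0042.

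**Figure D5:**
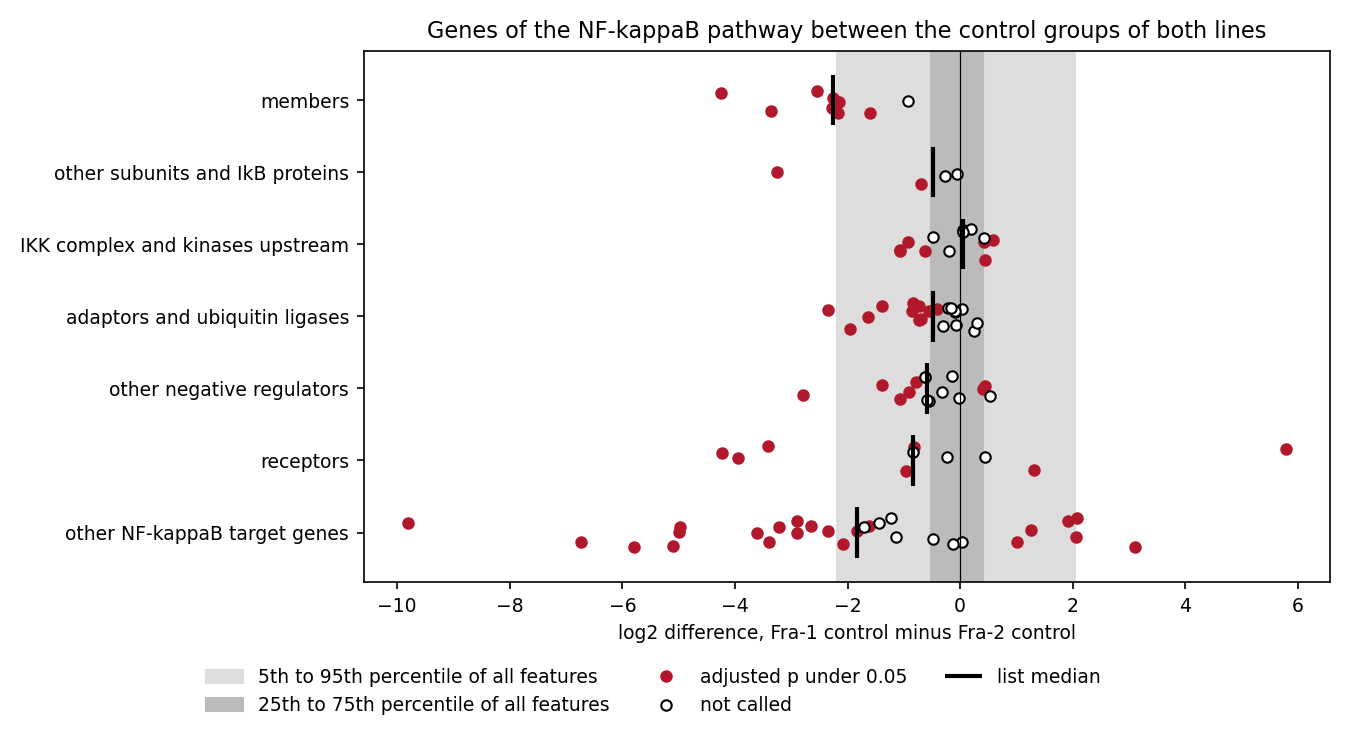
Log2 differences between Fra-1 control and Fra-2 control for the members and for 6 further lists of NF-kappaB pathway genes. Each dot is a gene, filled where called at an adjusted p under 0.05, black bars are list medians, and grey bands span percentiles 25 to 75 and 5 to 95 of all features. The members and other target genes lie mostly to the left of 0, and the IKK complex and upstream kinases lie around it.

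Between Fra-1 knockout and Fra-1 control, the NF-kappaB genes differed by less than the test could call. None of the 9 members was called, where 0.0113% of all features were (3, all lower), and none of the 9 had an unadjusted p under 0.05, as 2293 features did. The log2 differences ran from −0.23 for Nfkb1 to 0.30 for Tnfaip3, and the 95% intervals ran from −0.23 to 0.51 for Nfkbiz, the narrowest, to −0.56 to 1.17 for Tnfaip3, the widest. Nfkb1 read 0.26 and 0.38 in Fra-1 knockout cells, against 0.60 and 0.50 in Fra-1 control cells (adjusted p = 0.734). Its dimmer probe overlapped between the groups, at 0.25 and 0.51 in Fra-1 knockout cells, against 0.78 and 0.10 in Fra-1 control cells. That probe differed by −0.065. Nfkbia read 4.16 and 4.31 in Fra-1 knockout cells, against 4.35 and 4.39 in Fra-1 control cells (adjusted p = 0.9). For Nfkb1 by its brighter probe, and for Nfkbia and Bcl3, the knockout arrays were lower without overlap, as they were for 18.7% of all features. Tnfaip3, at 3.85 and 3.82 in Fra-1 knockout cells, against 3.52 and 3.54 in Fra-1 control cells, was higher without overlap (adjusted p = 0.841), as were 27.4% of all features. For the other 5 members the groups overlapped. Fibroblast markers summed to 40.6 and 62.9 in Fra-1 knockout cells, against 109 and 156 in Fra-1 control cells, and their part in these values was not tested.

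Between Fra-2 knockout and Fra-2 control none of the 9 members was called either, where 0.00377% of all features (1, lower) were. None of the 9 had an unadjusted p under 0.05, as 2320 features did. Differences ran from −0.12 for Nfkbia to 0.09 for Nfkb1, and the 95% intervals from −0.39 to 0.35 for Nfkbiz, the narrowest, to −0.83 to 0.91 for Tnfaip3, the widest. These differences average over slides that did not give the same values. Within slide 1 the 9 differences ran from −0.26 to −0.03, and within slide 2 from −0.08 to 0.34. Nfkbia read 6.25 and 6.76 in Fra-2 knockout cells, against 6.41 and 6.84 in Fra-2 control cells (adjusted p = 0.97). Tnfaip3 read 3.96 and 5.03 in Fra-2 knockout cells, against 4.22 and 4.69 in Fra-2 control cells (adjusted p = 0.993). All 9 members overlapped between the groups, whereas 20.2% of all features were lower and 14.9% higher without overlap. For Tnfaip3 the Fra-2 knockout arrays lay on both sides of the controls.

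The difference between the Fra-1 and the Fra-2 effect was also not called for any member, where 0.00377% of all features (1) were called and 2463 had an unadjusted p under 0.05. It ran from −0.33 for Nfkb1 to 0.26 for Tnfaip3, and none of the 9 had an unadjusted p under 0.05. The dimmer Nfkb1 probe gave −0.096. Of the 91 further pathway genes, none was called in either knockout comparison or in the difference between them, and 9, 2 and 6 had an unadjusted p under 0.05. Those with the smallest p per list in the Fra-1 knockout comparison included Rbck1, a subunit of the LUBAC ubiquitin ligase, at a difference of 0.37 (adjusted p = 0.483), and Tnip3, an A20-binding protein, at 0.78 (adjusted p = 0.568). The receptor Cd40 differed by 0.57 and the growth factor Csf1 by −0.74. In the Fra-2 comparison, Nos2, the inducible nitric oxide synthase, read −2.20 and −1.09 in Fra-2 knockout cells, against −0.53 and −0.17 in Fra-2 control cells, a difference of −1.29 (adjusted p = 0.449). Ikbkb read 3.25 and 3.31 in Fra-2 knockout cells, against 2.80 and 2.94 in Fra-2 control cells, a difference of 0.41 (adjusted p = 0.536). For the difference between the effects, genes with the smallest p per list included Il6 at −3.71 (adjusted p = 0.396) and Il1r1 at −1.79 (adjusted p = 0.514). Tnip3 was at 1.26 there (adjusted p = 0.47). Il6 was not above background on either Fra-1 knockout array. Il1r1 was not above background on Fra-2 knockout 1, at −3.99, and read −2.76 on Fra-2 knockout 2.

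Within the Fra-2 line, the members varied together between the slides. For 8 of 9 members, all but Nfkbiz, the slide 2 array was above the slide 1 array in Fra-2 knockout and in Fra-2 control alike, as it was for 32.8% of all features. The median difference of slide 2 over slide 1 was 0.48 log2 units over the 9 members and 0.00 over all features. Tnfaip3 and Ier3 had the widest gaps among the members, 0.77 and 0.67, and Nfkbiz a gap of 0.00. The same arrays differed in B cell markers, which summed on slide 1 to 71.8 in Fra-2 knockout and 80.2 in Fra-2 control, and on slide 2 to 50.1 in Fra-2 knockout and 38.0 in Fra-2 control. Large resident macrophage markers summed on slide 1 to 329 in Fra-2 knockout and 245 in Fra-2 control, and on slide 2 to 231 in Fra-2 knockout and 150 in Fra-2 control. Eosinophil sums were also lower on slide 2 in both groups. Neutrophil sums were higher on slide 2, 27.4 against 25.8 in Fra-2 knockout and 17.7 against 13.5 in Fra-2 control. Fibroblast sums were higher too, 3.11 against 2.72 in Fra-2 knockout and 3.21 against 1.36 in Fra-2 control. Sums of the remaining lists, mast cell markers among them, moved in opposite directions in knockout and control. The mice differ with the slides, so slide, mouse and cell makeup cannot be told apart here.

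After each line's mean was subtracted, 28 pairs of members without Nfkbiz had Pearson correlations from 0.49 to 0.97 over the 8 arrays, with a median of 0.84. The 8 pairs with Nfkbiz ran from −0.23 to 0.40. For every member tested but Nfkbiz, the standard deviation within a group was larger in both Fra-2 groups than in both Fra-1 groups. For Relb it was 0.48 in Fra-2 knockout and 0.27 in Fra-2 control, against 0.077 in Fra-1 knockout and 0.044 in Fra-1 control. The correlations thus rest largely on the Fra-2 line arrays and their slide gap. They describe 8 arrays that share slides and scaling, carry no test, and have no counterpart over all features here. By the same measure, the features most like Nfkbia were Mfsd1 (0.99), Slamf6 (0.99) and Prrc2a (0.98) of 11865, and 122 features exceeded a correlation of 0.9. Those most like Tnfaip3 were Ddx58, Tspo and Plekha3 (0.99 each), with 189 above 0.9. For Nfkb1 they were Yaf2 and Chsy1 (0.98 each) and Sipa1l2 (0.97). Nfkbiz was most like Nprl2 (0.96), Rnu3b1 and Rell2 (0.95 each), with 29 features above 0.9. Without subtraction of line means, several of these genes did not follow the member. Correlations then ran from 0.41 (Mfsd1) to 0.99 (Slamf6) for Nfkbia and from −0.30 (Plekha3) to 0.96 (Tspo) for Tnfaip3. They ran from −0.78 (Sipa1l2) to 0.999 (Chsy1) for Nfkb1 and from −0.96 (Rell2) to 0.27 (Nprl2) for Nfkbiz.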

How the data were processed

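RNA of 8 samples in 4 groups was measured in Cy3 on Agilent arrays. The file headers name Feature Extraction 11.5.1.1 with the protocol GE1_1105_Oct12. Per the file headers, the deposited processed signals are background-subtracted intensities on a linear scale, beside flags (score 0 or 1) for background, outliers and saturation. The deposited value table of the series holds log2 values that track the scanner values with each probe centred on its median over the 8 arrays (correlation 0.999 per array), with column medians from −0.15 to 0.25. Its scaling between arrays is not given in the sources used here.

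Control spots and spots flagged as outliers (191 to 317 per array) were left out, and spots of a probe were averaged. Signals were divided by the array's 75th percentile and put on a log2 scale. A probe was kept if both arrays of some group had it well above background, which left 31145. The brightest probe stood for a gene, giving 26549 features, 14481 of them named. Names came by accession from a RefSeq table of GRCm38.p6, whereas the file headers name build mm9, so no array coordinates are given. Group means were fitted over the 8 arrays with limma 3.58.1 under R 4.3.3 (4 residual degrees of freedom, prior 2.00), with Benjamini-Hochberg adjustment in each of 5 comparisons. Comparisons between knockouts and controls share arrays with those between lines, and all share 1 estimate of spread. The fit and the motif search were tested on simulated data. The number of arrays limits the precision, and where each array's mouse came from beyond its group is not labelled.

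The members and the gene lists were chosen with earlier results of these data known. All members and the targeted genes were named. From each pathway list up to 4 called genes with the largest differences and no overlap between groups were picked per comparison. The limit was 3 in lists under 12 genes, and where none was called the gene with the smallest p was picked. The text does not name every gene picked. Il12b had no probe by accession. Alternatives were quantile normalization, normexp with an offset of 50 (on median signals, as no mean signal was given), the deposited value table, slide as a block, averaging a gene's probes, no signal filter or one that asks for all 8 arrays, a trended prior, only the groups compared, and each array left out. They were applied to the other pathway genes and to Fosl1 and Fosl2 after the data were seen. Python 3.11.15 with matplotlib 3.10.9, pandas 2.3.3 and numpy 2.4.6 made the tables and figures.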

Additional observations from a re-analysis of the deposited data

How the results depend on the processing

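Over 17 alternatives, 8 or 9 members were called lower in each comparison between the lines, no member changed direction there, and no member was called in the knockout comparisons or in the difference between them (16 alternatives). Tnfaip3 was the only member whose call changed: between controls it was also called with normexp (−0.91, adjusted p = 0.0477) and with only the groups compared (adjusted p = 0.0431). Arrays could not be paired by replicate number, because the labels give none that run within groups, and the numbers used here follow the order of deposit. Slide alone served as a block. With 2 arrays per group, leaving 1 out leaves a lone array that is assumed to vary like the other groups. Dim probes are limited by background, most on Fra-2 knockout 1, where the lowest signal well above background was −3.58, against −4.98 to −4.45 on the other arrays.

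Directions of uncalled members were less stable. For Fra-1 knockout against control, 9 of 153 values changed sign: Relb −0.036 and Ier3 −0.019 with normexp, Relb −0.157, Birc3 −0.027 and Ier3 −0.146 with slide as a block, and with 1 array left out Ier3 ran from −0.13 to 0.23, Nfkb2 from −0.27 to 0.018 and Relb from −0.017 to 0.092. For Fra-2 knockout against control, 17 of 153 changed sign, all with 1 array left out, where Nfkb1 ran from −0.11 to 0.29, Nfkb2 from −0.28 to 0.44, Relb from −0.33 to 0.34, Nfkbia from −0.38 to 0.14, Nfkbiz from −0.12 to 0.079, Bcl3 from −0.34 to 0.23, Tnfaip3 from −0.49 to 0.58, Birc3 from −0.22 to 0.15 and Ier3 from −0.46 to 0.34. For the difference between the effects, 18 of 144 changed sign: Relb −0.055 with normexp, Relb −0.164 and Ier3 −0.085 with slide as a block, and with 1 array left out Nfkb2 ran from −0.57 to 0.16, Relb from −0.31 to 0.37, Nfkbia from −0.28 to 0.24, Bcl3 from −0.40 to 0.17, Tnfaip3 from −0.27 to 0.80, Birc3 from −0.083 to 0.29 and Ier3 from −0.29 to 0.51. With the mean of probes, Fosl2 differed by −0.016 in the Fra-2 comparison and 0.16 in the difference between effects. With 1 array left out, the Fra-2 difference ran from −0.089 to 1.36 for Fosl1 and from −0.0026 to 0.25 for Nfkbib. The cause was not tested.

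Counts over all features moved most where few were called. For Fra-1 knockout against control, 3 calls came to 25 with quantile normalization, to 0 with normexp, no filter, the filter on all 8 arrays, slide as a block, the trended prior and only the groups compared, and to 0 to 26 with 1 array left out. For Fra-2 knockout against control, 1 call came to 23 with quantile normalization, 11 with normexp, 5 with the filter on all 8 arrays, 3 with the mean of probes, 60 with the trended prior, 0 with no filter, slide as a block and only the groups compared, and 0 to 521 with 1 array left out. For the difference, 1 call came to 12 with quantile normalization, 0 with normexp, no filter, the filter on all 8 arrays, slide as a block and the trended prior, and 0 to 292 with 1 array left out. Between controls 8985 calls came to 5775 to 9060 with 1 array left out, and between knockouts 10361 came to 5800 to 9509. Of the other pathway genes picked or named between lines, none changed direction, and calls were lost in 15 of 405 values between controls and 10 of 405 between knockouts.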
